A study of Mus musculus with 4 samples.

Results

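The circadian clock genes followed here are Per1, Per2, Per3, Cry1, Cry2, Clock, Nr1d1, Nr1d2, Dbp and Tef, which are 10 of the 14914 genes tested in the series. They were taken by name from the array annotation. Each of the 10 had 1 probe set with no other gene symbol, and 10 of 10 lay above the filter on dim genes. Total RNA came from mouse hearts taken 1 week after pressure overload by TAC (transverse aortic constriction, an operation that narrows the aorta so that the left ventricle must pump against a higher pressure). There were 3 hearts from mice without MAFbx (knockout, KO), a muscle F-box protein of an SCF ubiquitin ligase encoded by Fbxo32, and 1 heart from a wild type (WT) mouse. TAC was common to both genotypes, and an unoperated or sham group was not analysed here. The labels give neither the strain, age and sex of the mice nor the tissues in which the gene is deleted, and they do not give the hour at which the hearts were taken. They number the hearts within a genotype without saying that each is a separate animal, so the p-values rest on a spread between samples that may be technical, and here on that of the knockout samples alone.

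The mammalian clock is a feedback loop of transcription. CLOCK pairs with BMAL1 (encoded by Arntl) and switches on the Per and Cry genes through a DNA element called the E-box, and the PER and CRY proteins then repress that pair. The REV-ERB receptors, encoded by Nr1d1 and Nr1d2, close a second loop by repressing Arntl, and DBP and TEF carry the rhythm to other genes through another element, the D-box. In the mouse heart this clock times genes of metabolism, growth and electrical conduction, and the transcripts of the loop peak at different hours, with Nr1d1 ahead of Per2 and Cry1.

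The elements through which the members are known to drive each other were searched for in RefSeq promoter windows (GRCm38.p6). Each window reached from 250 bases before to 50 bases after an annotated start. Of the 10 members 9 had such windows, 13 in all, while Per2 had none at hand and was not searched. The search covered both strands for the E-box (CACGTG), the D-box (TTATGTAA or TTACGTAA) and the core of the REV-ERB and ROR element (TAGGTCA or TGGGTCA). TTACGTAA and CACGTG read the same on both strands, and none of the motifs found overlapped another. The E-box was found in 4 of the 13 windows, from the 3 members Per1, Cry1 and Tef, against 7.15% of all 32851 windows. The D-box was found in 1 of the 13 windows, against 1.06% of all windows with at least 1 match. This was the window of Per3, which held it at 205 and again at 158 bases before the start. The core of the REV-ERB and ROR element was found in 0 member windows, against 6.45% of all. A match is a description of the letters and not a site. The 4 windows below show each member with a match once, with the motif in capitals, and a further Tef window with an E-box is not shown. Per3 and Tef are the members with the largest differences between the genotypes, and Per1 and Cry1 are repressors of the main loop.
Per3, chr4:151044616-151044915, minus strand: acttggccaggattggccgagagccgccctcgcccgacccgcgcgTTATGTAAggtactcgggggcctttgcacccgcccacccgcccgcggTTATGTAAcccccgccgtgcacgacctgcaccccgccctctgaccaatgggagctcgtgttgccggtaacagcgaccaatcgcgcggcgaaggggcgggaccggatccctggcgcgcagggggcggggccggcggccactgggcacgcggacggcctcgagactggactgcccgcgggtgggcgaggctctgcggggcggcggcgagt
Tef, chr15:81802423-81802722, plus strand: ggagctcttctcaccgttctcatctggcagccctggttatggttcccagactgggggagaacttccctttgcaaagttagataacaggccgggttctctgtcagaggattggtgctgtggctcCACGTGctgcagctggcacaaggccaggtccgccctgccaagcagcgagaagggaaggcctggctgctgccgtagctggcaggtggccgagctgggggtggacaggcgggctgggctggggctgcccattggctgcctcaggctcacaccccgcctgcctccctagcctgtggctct
Per1, chr11:69098699-69098998, plus strand: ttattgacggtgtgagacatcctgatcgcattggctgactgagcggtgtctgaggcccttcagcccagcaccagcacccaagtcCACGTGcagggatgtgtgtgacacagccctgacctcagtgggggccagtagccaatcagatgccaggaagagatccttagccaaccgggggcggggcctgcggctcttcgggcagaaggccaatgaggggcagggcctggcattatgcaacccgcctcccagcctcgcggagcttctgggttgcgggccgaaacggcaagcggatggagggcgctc
Cry1, chr10:85185005-85185304, minus strand: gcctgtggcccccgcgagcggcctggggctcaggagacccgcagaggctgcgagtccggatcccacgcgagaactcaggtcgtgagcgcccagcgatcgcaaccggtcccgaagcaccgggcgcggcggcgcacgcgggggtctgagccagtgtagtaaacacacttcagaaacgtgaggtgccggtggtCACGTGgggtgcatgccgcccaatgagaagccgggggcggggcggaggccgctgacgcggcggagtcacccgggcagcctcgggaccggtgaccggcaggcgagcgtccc

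Before the members are read, some facts of the 4 arrays apply to every value. Fbxo32 read 5.65, 5.61 and 5.56 on the knockout arrays and 7.54 on the wild type array, on the log2 scale of the deposited values, as used for all levels here (limma adjusted p = 0.0529). The array medians over the genes tested were 6.84 on each knockout array and 6.87 on the wild type array. Xist, the RNA of the inactive X chromosome, was high in knockouts 1 and 2 (9.18 and 9.52) and low in knockout 3 (3.20) and in the wild type heart (4.13). The Y-linked Eif2s3y ran the other way, so each member is given per array. Knockout 3 is thus not a technical repeat of knockout 1 or 2, and the knockout spread behind the p-values includes this split. The heart label was checked against 6 cardiomyocyte markers (Myh6, Actc1, Tnnt2, Tnni3, Pln and Ryr2), whose mean level was 13.05, 13.06 and 12.92 in the knockouts and 12.91 in the wild type heart. Of 7 macrophage markers 6 read below wild type on every knockout array (24.6% over all genes). Their mean level was 7.06, 7.06 and 7.45 in the knockouts and 8.06 in wild type. At an unadjusted limma p under 0.05, 5 of the 7 were lower (4.05% over all genes), and 0 passed at an adjusted p under 0.05. Proliferation markers (Mki67, Top2a, Ccna2 and Plk1) averaged 5.29, 5.79 and 7.23 in the knockouts and 7.22 in wild type. Of these 4 markers 1 read below wild type on every knockout array (24.6% over all genes), and 1 was lower at an unadjusted limma p under 0.05. No marker of these lists read at 0, and their part in the clock gene values was not tested. In these heart samples, fewer cells of a type and less RNA per cell cannot be told apart.

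Across the 10 members the differences between knockout and wild type hearts were modest, the largest being 1.44-fold. None of the 10 was called by limma at an adjusted p under 0.05, where 0.00671% of all genes tested were called. At an unadjusted limma p under 0.05, 1 member was higher in the knockout hearts, Per3, against 1.68% of all genes, and 0 were lower, against 4.05%. Per1, Per2, Per3, Nr1d2, Dbp and Tef, 6 of the 10, read above wild type on every knockout array, where 23.9% of all genes did. Nr1d1 alone read below wild type on every knockout array, where 24.6% of all genes did, and Cry1, Cry2 and Clock overlapped the wild type value. The median log2 fold change (knockout minus wild type, as for all fold changes here) was 0.27 over the members, against 0.00 over all genes tested. It was 0.16 without knockout 1, and 0.13 between knockout 3 and wild type 1 alone, the arrays with low Xist.

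**Figure D1:**
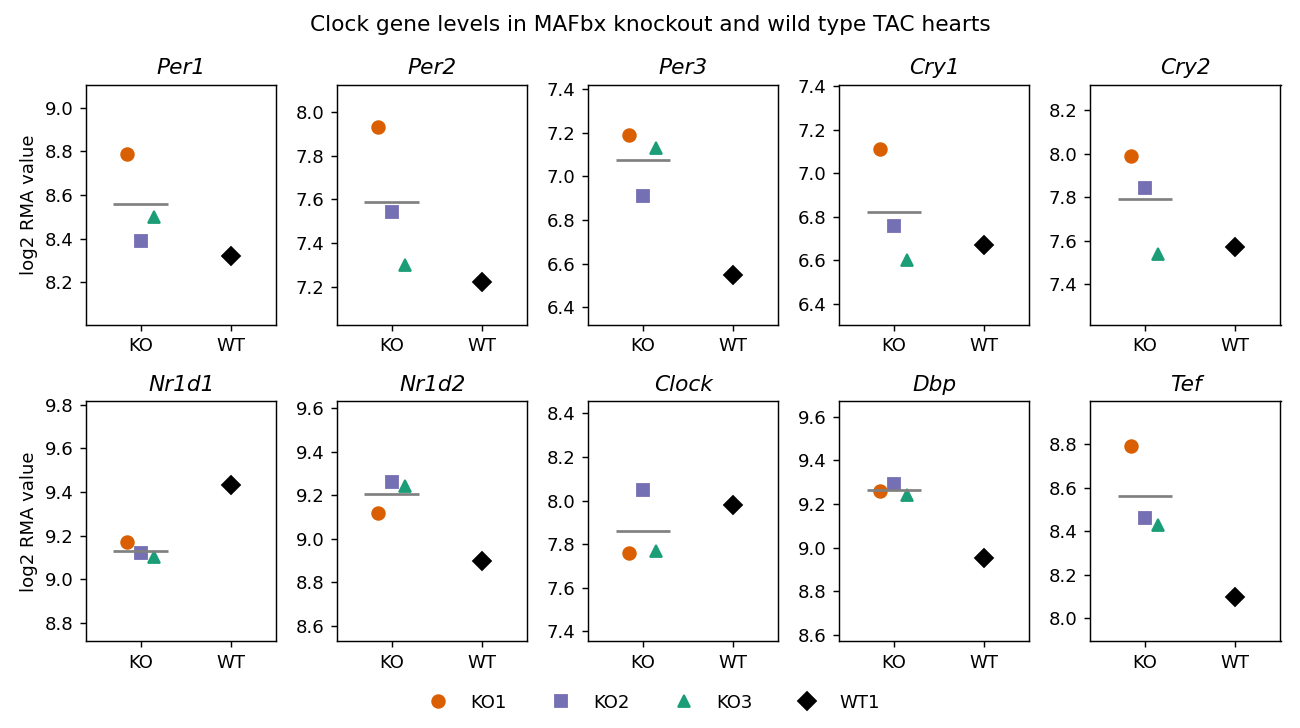
Each panel plots 1 clock gene, with the log2 RMA value on the y axis (every panel spans the same number of log2 units) and the genotype on the x axis. Coloured points are the 3 knockout arrays, the black diamond is the wild type array and the grey line is the knockout mean. Dbp, Nr1d1 and Nr1d2 show tightly grouped knockout points apart from wild type, and Per2, Cry1 and Cry2 show spread knockout points that reach down to it.

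The Per genes encode repressors that accumulate during the cycle and close the main loop. Per3, a Per family member that is dispensable for the core loop, read 7.19, 6.91 and 7.13 in the knockout hearts and 6.55 in the wild type heart. The knockout arrays lay above wild type without overlap, and the nearest, knockout 2, was 0.36 higher. Per3 averaged 7.08 ± 0.15 (SD, n = 3) in the knockouts, 1.44-fold higher, with a log2 fold change of 0.53 (SE 0.19, 95% interval 0.07 to 0.98). Its unadjusted limma p was 0.0284, the smallest of the 10 members, and its adjusted p = 0.776 did not pass the threshold. Between knockout 3 and wild type 1 the log2 difference was 0.58, as large as in the whole comparison.

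Per2, a core repressor, read 7.93, 7.54 and 7.30 in the knockout hearts and 7.22 in the wild type heart. Knockout 1 was high and knockout 3 stood only 0.08 above wild type, so the spread between knockouts (0.63 from lowest to highest) exceeded the distance to wild type. The log2 fold change of Per2 was 0.37 (SE 0.26, 95% interval -0.24 to 0.98, limma adjusted p = 0.938), and it was 0.20 without knockout 1. Per1, the Per gene that also responds fast to stress hormones, read 8.79, 8.39 and 8.50 in the knockouts and 8.32 in wild type. Knockout 1 was again the highest array, and knockout 2 lay 0.07 above wild type. For Per1 the log2 fold change was 0.24 (SE 0.21) with a limma adjusted p = 0.957, and it was 0.13 without knockout 1.

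The cryptochromes Cry1 and Cry2, which bind the PER proteins and do most of the direct repression of CLOCK and BMAL1, did not separate the genotypes. Cry1 read 7.11, 6.76 and 6.60 in the knockout hearts, against 6.67 in the wild type heart, which lay inside the knockout range. Cry2 read 7.99, 7.84 and 7.54 in the knockouts and 7.57 in wild type. In both genes knockouts 1 and 2 read above wild type and knockout 3 slightly below it. The log2 fold change was 0.15 for Cry1 (SE 0.23, 95% interval -0.40 to 0.70) and 0.22 for Cry2 (SE 0.22, 95% interval -0.30 to 0.74). Without knockout 1 these became 0.01 for Cry1 and 0.12 for Cry2, and without knockout 3 they became 0.27 and 0.35.

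Nr1d1 and Nr1d2, the paired REV-ERB repressors of Arntl, differed from wild type in opposite directions. Nr1d1 read 9.17, 9.12 and 9.10 in the knockout hearts and 9.43 in the wild type heart. The knockout arrays lay within 0.07 of each other and 0.26 or more below wild type, a 1.23-fold lower mean with a log2 fold change of -0.30 (SE 0.17, 95% interval -0.70 to 0.10, limma adjusted p = 0.923). Nr1d2 read 9.12, 9.26 and 9.24 in the knockouts and 8.90 in wild type. Its knockout arrays lay 0.22 or more above wild type, with a log2 fold change of 0.31 (SE 0.18, 95% interval -0.11 to 0.72, limma adjusted p = 0.923). Knockout 3 against wild type 1 gave -0.33 for Nr1d1 and 0.34 for Nr1d2, so these opposite differences were as large between the arrays with low Xist as over all arrays. Clock, the activator of the main loop, read 7.76, 8.05 and 7.77 in the knockout hearts and 7.98 in wild type. Wild type lay inside the knockout range, and the log2 fold change of Clock was -0.12 (SE 0.20, 95% interval -0.59 to 0.35). It was -0.07 without knockout 1, -0.22 without knockout 2 and -0.08 without knockout 3.

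Dbp and Tef encode related PAR bZIP factors that bind the D-box and pass the rhythm to output genes. Dbp read 9.26, 9.29 and 9.24 in the knockout hearts, against 8.95 in the wild type heart. The knockout arrays spanned 0.05 and stood 0.29 or more above wild type, a log2 fold change of 0.31 (SE 0.17, 95% interval -0.09 to 0.71, limma adjusted p = 0.923). The SD of Dbp between knockout arrays was 0.03 (n = 3), and 1.81% of the genes tested had a smaller one. Because limma draws a small SD towards that of all genes, the SE of Dbp is larger than its own spread alone would give. Tef read 8.79, 8.46 and 8.43 in the knockouts and 8.10 in wild type. All knockout arrays lay 0.33 or more above wild type, 1.38-fold higher on average, which as a log2 fold change was 0.46 (SE 0.21, 95% interval -0.03 to 0.95) at a limma adjusted p = 0.880.

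The members therefore fell into different orders of the 4 arrays. In Per3, Nr1d1, Nr1d2 and Dbp, 4 of the 10, wild type stood apart from the knockouts by more than the whole range of the knockout arrays, which 12.4% of all genes tested showed. With 1 knockout array left out, their log2 fold changes lay between 0.30 and 0.33 for Dbp and 0.28 and 0.35 for Nr1d2. They lay between -0.32 and -0.29 for Nr1d1 and 0.47 and 0.61 for Per3. Genes picked for a narrow knockout range can move little in this way, and every run holds the same wild type array. These ranges are therefore a description and not a test. In Per2, Cry1, Cry2, Dbp and Tef, 5 of the 10, knockouts 1 and 2 both read above knockout 3 and wild type, which 22.5% of all genes tested showed. In Dbp and Tef knockout 3 (9.24 and 8.43) lay close to the lower of knockouts 1 and 2 (9.26 and 8.46), and further from wild type (8.95 and 8.10). By rank alone this second order is also that of Xist. With 1 wild type heart the Xist difference and the genotype cannot be told apart in full. Knockout 1 was the highest array in 6 members and wild type the lowest in 6, against 27.5% and 23.9% of all genes.

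Set against each other in pairs, knockout 1 and wild type 1 were the arrays furthest apart in clock transcripts, and knockouts 2 and 3 the closest. The mean absolute log2 difference over the 10 members was 0.44 for knockout 1 with wild type 1, 0.26 for knockout 2 and 0.24 for knockout 3 with wild type 1. Over all genes tested the same pairs gave 0.27, 0.25 and 0.20. Between knockouts the members gave 0.24 for knockouts 1 and 2, 0.25 for knockouts 1 and 3 and 0.14 for knockouts 2 and 3, against 0.20, 0.25 and 0.24 over all genes. The range over the 4 arrays was 0.29 (Clock) to 0.71 (Per2) for the members, with a median of 0.46 against 0.37 for all genes tested. The clock hour of a heart was not estimated, since neither a time course nor the hour of collection was at hand.

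**Figure D2:**
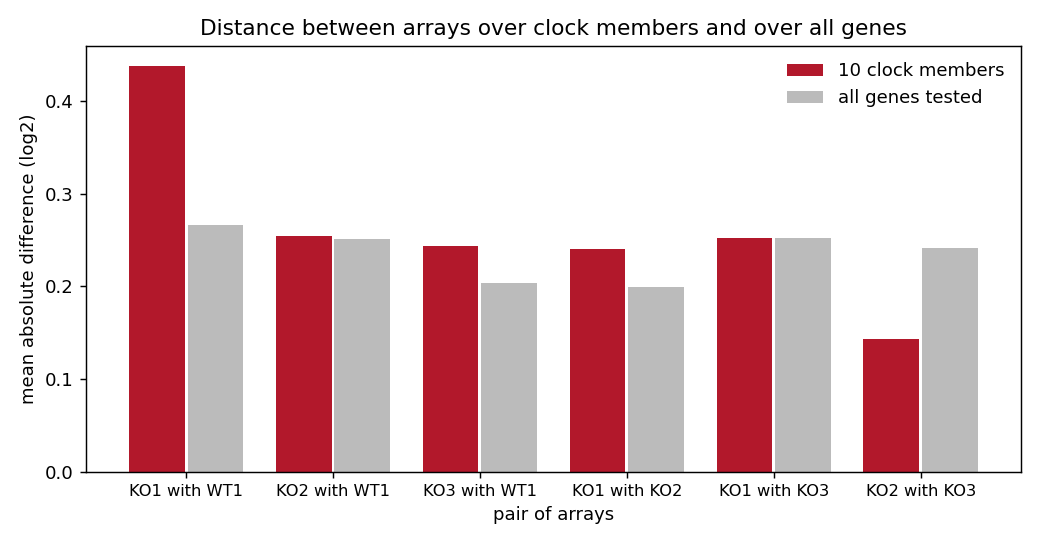
Bars give the mean absolute log2 difference (y axis, from 0) for each pair of arrays (x axis), over the 10 clock members in red and over all genes tested in grey, with the pairs of a knockout and the wild type array on the left. Knockout 1 with wild type 1 has the tallest red bar (0.44) and knockouts 2 and 3 the shortest (0.14).

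Among 19 further genes of the clock, 16 were tested and none passed limma at an adjusted p under 0.05, with adjusted p from 0.776 to 0.997. At an unadjusted limma p under 0.05, 1 was lower (4.05% over all genes) and 0 were higher (1.68% over all genes). Of the 16, 3 read above and 4 below wild type on every knockout array, shares near the 23.9% and 24.6% over all genes, with a median log2 fold change of 0.09. The others of the list were not analysed here. Arntl, the gene for BMAL1, read 5.53, 5.49 and 5.41 in the knockout hearts and 5.62 in the wild type heart. The groups did not overlap, but the distance was small, with a log2 fold change of -0.14 (SE 0.17, 95% interval -0.55 to 0.27). Hlf, the PAR bZIP relative of Dbp and Tef, read 7.45, 7.26 and 6.86 in the knockouts and 6.78 in wild type, which gave 0.41 as log2 fold change (SE 0.25) and a limma adjusted p = 0.923. Nfil3, which represses at the D-box, read 7.02, 6.91 and 6.55 in the knockouts and 6.86 in wild type. Wild type lay inside the knockout range of Nfil3.

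The gene furthest below wild type on this list was Bhlhe40, whose product (DEC1) competes at the E-box. It read 7.30, 7.42 and 7.43 in the knockout hearts and 7.86 in the wild type heart, a log2 fold change of -0.48 (SE 0.17, 95% interval -0.89 to -0.06). Its unadjusted limma p was 0.0292 and its adjusted p = 0.776. Its relative Bhlhe41 (DEC2) read 8.70, 8.87 and 8.66 in the knockouts and 9.01 in wild type, a log2 fold change of -0.27 (SE 0.18). Both DEC genes thus lay below wild type on every knockout array. Ciart, a repressor of CLOCK and BMAL1, had a pair of probe sets that disagreed in knockout 3. The brighter one read 7.99, 8.51 and 7.49 in the knockouts and 7.60 in wild type, and the other read 7.18, 7.55 and 6.87 in the knockouts and 6.49 in wild type. Cipc, another inhibitor of CLOCK, read 8.06, 7.87 and 7.58 in the knockouts and 7.67 in wild type.

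**Figure D3:**
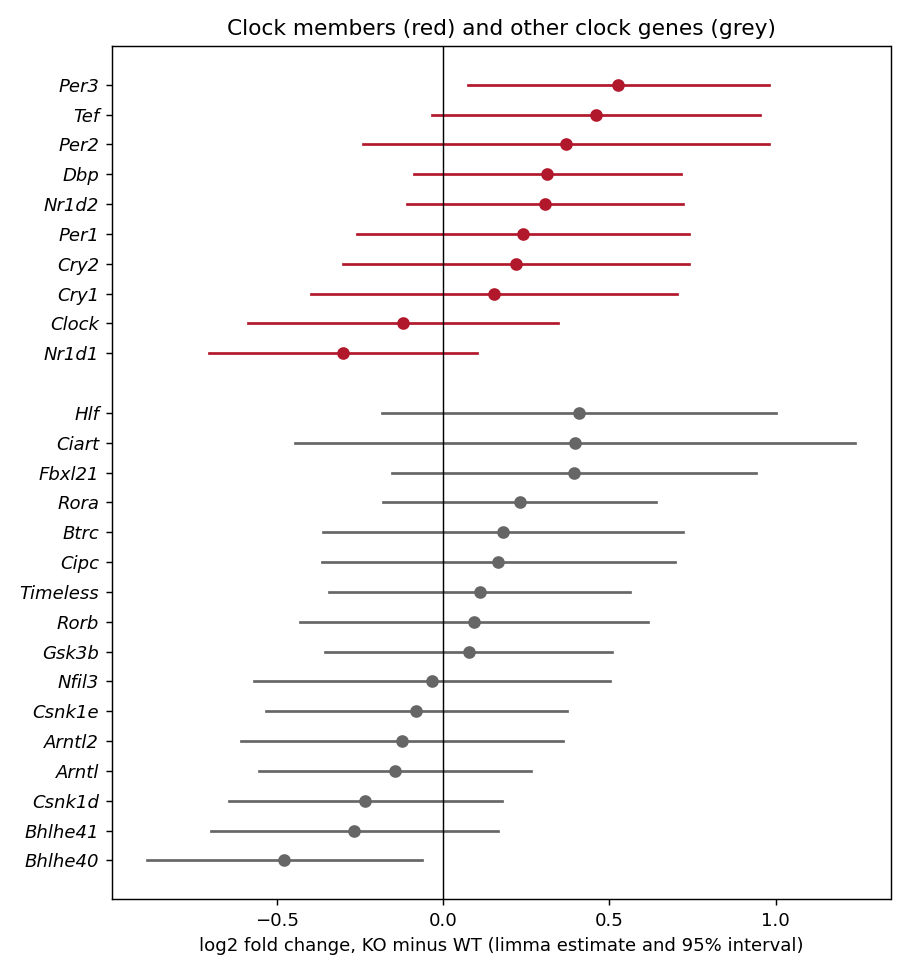
Points are limma log2 fold changes of knockout minus wild type (x axis) with their 95% intervals, for the 10 clock members in red and 16 other clock genes in grey, each set in order of its estimate. Per3 (0.53) and Bhlhe40 (-0.48) lie at the ends with intervals that leave out 0, and neither passed after adjustment over all genes.

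Genes that the clock is known to influence in the heart were read from a list chosen for this purpose, and none of them was called. All 13 tested of a list of 15 had a positive log2 fold change (50.4% over all genes). Of these, 10 read above wild type on every knockout array (23.9% over all genes), and the median log2 fold change was 0.42. At an unadjusted limma p under 0.05, 3 were higher (1.68% over all genes) and 0 lower, and 0 passed limma at an adjusted p under 0.05. These were Ucp3, Kcnip2 and Nampt, the genes with the largest differences. Ucp3, a mitochondrial uncoupling protein gene that cycles in the rodent heart, read 7.92, 7.74 and 7.05 in the knockout hearts and 6.42 in the wild type heart (log2 fold change 1.15, SE 0.33, limma adjusted p = 0.564). Kcnip2, a subunit of the transient outward potassium channel, read 8.14, 8.38 and 8.17 in the knockouts and 7.31 in wild type (log2 fold change 0.92, SE 0.19, limma adjusted p = 0.370). Nampt, the rate-limiting enzyme of NAD salvage, read 9.90, 10.07 and 9.56 in the knockouts and 9.19 in wild type (log2 fold change 0.65, SE 0.23, limma adjusted p = 0.754). The median log2 difference from wild type was 0.56 in knockout 1, 0.44 in knockout 2 and 0.08 in knockout 3. In knockout 3 the genes went both ways, with 10 above wild type (7025 of 14914 over all genes), up to 0.86 for Kcnip2. Dgat2 (-0.46), Pdk4 (-0.21) and Alas1 (-0.11) lay below wild type there. Klf15, a clock-driven factor that acts on Kcnip2, read 8.89, 8.48 and 8.07 in the knockouts and 8.04 in wild type, a log2 fold change of 0.44 (SE 0.30).

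**Figure D4:**
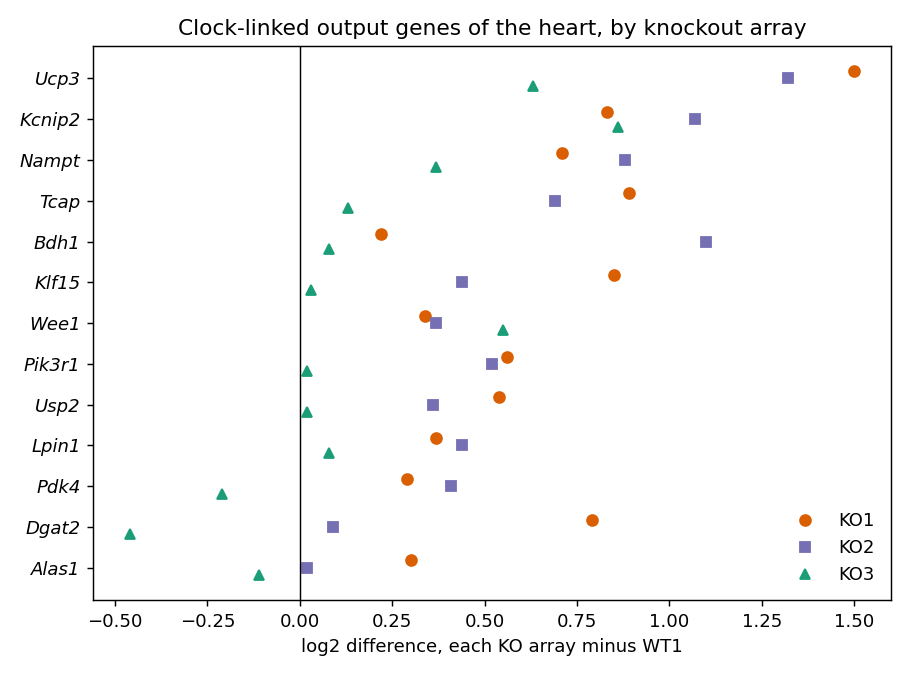
Each row is a clock-linked output gene of the heart, and the points give the log2 difference of knockout 1, 2 or 3 minus the wild type array (x axis). Of the 13 triangles (knockout 3), 6 lie between 0.02 and 0.13, with Kcnip2 (0.86), Ucp3 (0.63) and Wee1 (0.55) as the furthest above it.

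Glucocorticoids reset Per1 in peripheral tissues, so genes that respond to them were read beside the clock. Of 9 such genes 4 read above and 2 below wild type on every knockout array (23.9% and 24.6% over all genes), with a median log2 fold change of 0.27. None passed limma at an adjusted p under 0.05, and 2 were higher at an unadjusted p under 0.05 (1.68% over all genes). Tsc22d3 (GILZ) read 8.13, 7.95 and 7.93 in the knockout hearts and 7.39 in the wild type heart, which gave 0.61 as log2 fold change (SE 0.18) and a limma adjusted p = 0.592. Klf9 read 9.15, 9.10 and 8.90 in the knockouts and 8.54 in wild type, a log2 fold change of 0.51 (SE 0.19). Mt2, a metallothionein gene, read 10.63, 11.00 and 10.72 in the knockouts and 11.25 in wild type, a log2 fold change of -0.47 (SE 0.21). Knockout and wild type arrays did not overlap in any of these 3 genes. Tsc22d3 lies on the X chromosome, and its difference between knockout 3 and wild type 1 was 0.54.

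Body temperature also carries the rhythm to peripheral clocks, by way of heat shock and cold-inducible genes. Of 7 such genes tested, 1 read above and 4 below wild type on every knockout array (23.9% and 24.6% over all genes), with a median log2 fold change of -0.35. None passed limma at an adjusted p under 0.05, and 2 were lower at an unadjusted p under 0.05 (4.05% over all genes). Rbm3, a cold-inducible RNA-binding protein gene on the X chromosome, read 10.07, 10.53 and 10.51 in the knockout hearts and 11.06 in the wild type heart, which gave -0.69 as log2 fold change (SE 0.23) and a limma adjusted p = 0.699. The other probe sets that carry the symbol Rbm3 also read below wild type on every knockout array. Hspa1a, an inducible HSP70 gene, read 6.76, 6.46 and 6.50 in the knockouts and 7.16 in wild type, a log2 fold change of -0.59 (SE 0.20). Hsp90aa1 and Hsph1 were each at -0.35. Cirbp, the relative of Rbm3 that helps keep clock amplitude, read 8.46, 8.23 and 8.11 in the knockouts and 8.10 in wild type.

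Of the genes outside the clock, those whose profile over the 4 arrays lay nearest to Dbp were Mtch1, Gfra4, Snhg11, Dbx2 and Dag1, with a Euclidean distance between centred log2 profiles of 0.02 to 0.03. Mtch1 read 9.89, 9.92 and 9.89 in the knockout hearts and 9.60 in the wild type heart. Of the other members Nr1d2 was nearest to Dbp (0.10) and Nr1d1 furthest (0.53). With 4 arrays, a close profile describes these samples only.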

How the data were processed

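Total RNA of 4 mouse hearts was hybridised to Affymetrix Mouse Gene ST arrays. The authors made the deposited log2 values with Affymetrix Expression Console and RMA, per the submitters' processing notes. Their versions and the genome build are not stated in the sources used here. RMA equalises the arrays and compresses differences between dim genes. Of 35556 probe sets, 21789 had 1 gene symbol in the platform annotation. The probe set with the highest mean stood for a gene, and means under the 25th percentile (4.71) were left out, leaving 14914 genes. The genotypes were tested in limma (3.58.1, under R 4.3.3) by lmFit and eBayes, two-sided, with 2 residual and 5.04 prior degrees of freedom, and with Benjamini-Hochberg adjustment over all genes tested at a threshold of 0.05. The spread of the lone wild type array is taken to equal that of the knockouts. For 1 array against 3 the smallest p of an exact permutation test is 0.25, so array number limits precision. The fit was run on simulated data with planted changes and independent noise, which checks the code and not the calls made on these arrays.

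The members and lists were chosen with earlier results of these data known. The naming rule takes all members, a set of other clock genes as far as they were analysed, the 3 genes of each other list with the largest difference (ties included), the 5 genes nearest to Dbp, Fbxo32, Xist and Eif2s3y. Klf15, Wee1, Dgat2, Pdk4, Alas1 and Cirbp were named after their values were seen. Alternatives were other normalizations, filters, probe set rules, variance models and thresholds, leaving out each knockout array, and knockout 3 against wild type 1.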

Additional observations from a re-analysis of the deposited data

How the results depend on the processing

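No clock member was called under any of the 11 alternatives with a test, and their adjusted p ranged from 0.492 to 0.997 over all settings. The 10 members kept the direction of their log2 fold change in those alternatives. The filters, variance models and threshold cannot change it, nor can the probe set rule, since each member had 1 probe set. Only the normalizations and the left-out arrays could move it, and without knockout 1 Cry1 stood at 0.01. The count of all genes called, 1 as reported, was 0 with quantile normalization renewed and 0 without the filter, 8 with each array centred on its median, 2 with the filter at the 50th percentile, 7 with trend and 9 with robust in eBayes, and 11 at an adjusted p under 0.1. It was 0 without any 1 of the knockout arrays. The count of members above wild type on every knockout array, 6 as reported, was 7 with quantile normalization renewed and 8 without knockout 3. In the other alternatives with this count it stayed at 6. The count of members below wild type on every knockout array was between 1 and 2 when a knockout array was left out. Between knockout 3 and wild type 1 alone it was 4. There Cry1 stood at -0.07 in place of 0.15 and Cry2 at -0.03 in place of 0.22. The mean absolute difference between knockout arrays over the members, 0.21, ranged from 0.14 to 0.25 when 1 was left out. The cause of these shifts was not tested, beyond the smaller number of arrays or genes. Knockout 3 against wild type 1 leaves no residual degrees of freedom, so no genes were called there. No paired analysis was possible because the genotypes share only 1 replicate number. The signal of each probe over background was not analysed here.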

Other observations

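Markers of other cell types were read on the same arrays. Of 6 endothelial markers 4 read above wild type on every knockout array (23.9% over all genes). Their mean level was 8.84, 8.79 and 9.14 in the knockouts and 8.66 in wild type. Of 4 smooth muscle markers 3 read below wild type on every knockout array (24.6% over all genes). Their mean level was 7.98, 8.49 and 8.13 in the knockouts and 8.63 in wild type. Fibroblast markers averaged 9.80, 10.25 and 10.99 in the knockouts and 10.51 in wild type, so that knockouts 1 and 2 lay below wild type and knockout 3 above it. Only the collagen genes Col1a1, Col1a2 and Col3a1 had this order. Of the 6 markers 2 (Dcn and Lum) read above and 1 (Pdgfra) below wild type on every knockout array (23.9% and 24.6% over all genes). Atrial cardiomyocyte markers (Myl7, Myl4 and Sln) averaged 8.05, 7.25 and 7.57 in the knockouts and 8.04 in wild type. Adipocyte markers, of which 3 were measured, averaged 4.99, 4.89 and 4.80 in the knockouts and 4.73 in wild type, near the level of the filter on dim genes. None of the genes on these lists passed limma at an adjusted p under 0.05. Of the 4 smooth muscle markers 2 were lower in the knockouts at an unadjusted p under 0.05 (4.05% over all genes). No tested marker on the other lists of this paragraph reached that level in either direction.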
